A study of Mus musculus with 12 samples.

Results

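The pyruvate dehydrogenase complex and its regulators were described in mouse hearts on single-channel expression arrays. The 10 genes are the kinases *Pdk1*, *Pdk2*, *Pdk3* and *Pdk4*, the phosphatases *Pdp1* and *Pdp2*, and the complex subunits *Pdha1*, *Pdhb*, *Dlat* and *Pdhx*. They were found by their symbols among the probes of the arrays, which gave 22 probes for 10 genes, of 56605 probes for 27225 named genes. *Pdk1* had 5 probes, *Pdhb* had 3, *Pdk2* and *Pdk4* had 1 each, and each other gene had 2. All 22 probes passed the filter on dim signal and were tested.

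Hearts came from 12 male C57BL6/J mice aged 5 months, with 1 array per mouse and 3 mice in each group. Control mice (C) received neither agent. Control mice with pargyline (C + P) received this inhibitor of monoamine oxidase at 50 mg/kg per day for 12 weeks. Diabetic mice (D) had been injected with streptozotocin, which is toxic to the insulin-producing cells of the pancreas, at 50 mg/kg per day for 5 days, and counted as diabetic from a blood glucose of 17 mM. Diabetic mice with pargyline (D + P) received both agents. The model is therefore diabetes by toxic loss of insulin in 1 sex and 1 strain. RNA came from heart tissue, in which fewer cells of a type and less RNA per cell cannot be told apart.

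The complex sits in the mitochondrial matrix and turns pyruvate, the end product of glycolysis, into acetyl-CoA for the citric acid cycle. Kinases of the Pdk family phosphorylate its alpha subunit and switch it off, and the phosphatases Pdp1 and Pdp2 remove the phosphate and switch it on. In heart muscle this switch sets how much glucose is burned beside fatty acids. *Pdk4* is known as a gene induced by fasting, lack of insulin and fatty acids through peroxisome proliferator-activated receptors (PPARs) and FoxO factors.

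The deposited arrays bore out the tissue. All 7 cardiomyocyte markers were well above background on all 12 arrays, and the log2 of their summed signal lay between 19.19 and 19.49. Of 4 fat cell markers, 0 were well above background on all 12 arrays. Of 4 atrial markers, 1 was, and the log2 of their summed signal lay between 7.75 and 8.63. Both groups without pargyline shared 1 slide and both groups with pargyline shared the other slide, so that slide and pargyline cannot be told apart. In every slide the non-diabetic hearts lay in row 1 and the diabetic hearts in row 2, so that row and diabetes cannot be told apart either. Between 23556 and 29231 spots per array were well above background, D replicate 1 having the fewest, and 0 were saturated.

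Promoter sequence is shown for the kinases with the largest differences between diabetic and non-diabetic hearts, *Pdk4* and *Pdk1*. Each run is the 250 bases before the start of the gene in RefSeq on build GRCm38.p6, 5′ to 3′ on the strand of the gene, and capitals mark a CCAAT box (CCAAT or ATTGG) or a GC box (GGGCGG or CCGCCC). *Pdk4* lies on the minus strand, chr6:5496279-5496528, and *Pdk1* on the plus strand, chr2:71872974-71873223.
Pdk4: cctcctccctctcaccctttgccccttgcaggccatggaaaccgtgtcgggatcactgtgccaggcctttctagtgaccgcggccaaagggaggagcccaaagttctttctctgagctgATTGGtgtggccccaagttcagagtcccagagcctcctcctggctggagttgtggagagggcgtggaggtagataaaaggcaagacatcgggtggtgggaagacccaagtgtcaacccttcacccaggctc
Pdk1: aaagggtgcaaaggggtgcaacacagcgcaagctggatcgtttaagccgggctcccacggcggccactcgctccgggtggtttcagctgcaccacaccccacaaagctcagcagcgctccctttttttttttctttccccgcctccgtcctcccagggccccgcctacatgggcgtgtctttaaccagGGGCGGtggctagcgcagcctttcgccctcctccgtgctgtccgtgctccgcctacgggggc

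The *Pdk4* window held 6 CpG dinucleotides, and the median of all 32851 windows was also 6, and the *Pdk1* window shown held 19. RefSeq gives *Pdk1* another start with a window that held 2, at chr2:71874654-71874903. RefSeq windows were matched for 9 of the 10 genes, 11 windows in all, with 2 to 29 CpG dinucleotides. A CCAAT box was present in 5 of the 11 windows, that of *Pdk4* among them, against 33.8% of all windows. A GC box was present in 6 of the 11, the *Pdk1* window shown among them, against 32.7% of all windows. The nuclear receptor element AGGTCA (reverse TGACCT) and the FoxO element GTAAACA (reverse TGTTTAC) were present in 0 of the 11, against 14.0% and 3.2% of all windows. In these 11 windows 0 matches of the elements overlapped another match, and the windows cover the bases nearest to the start and no more.

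Of the 10 genes, *Pdk4* had the largest difference between diabetic and non-diabetic hearts. Its probe lies on the minus strand of chromosome 6 at chr6:5433441-5433500 (mm9), and its signal was well above background on every array. Log2 signal, after quantile normalisation, was 12.66, 12.07 and 11.83 in C and 13.87, 14.01 and 13.56 in D. It was 11.72, 12.54 and 10.94 in C + P and 12.77, 13.89 and 14.09 in D + P. Every D array was above every C array and every D + P array was above every C + P array, although D + P replicate 1 was only slightly above the highest C array. On the linear scale the signal of C ran from 3636 to 6454 and that of D from 12077 to 16441, and with pargyline C + P ran from 1960 to 5964 and D + P from 6961 to 17451. The mean log2 signal was 12.19 ± 0.43 for C against 13.81 ± 0.23 for D, and 11.73 ± 0.80 for C + P against 13.58 ± 0.71 for D + P (SD, n = 3).

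**Figure D1:**
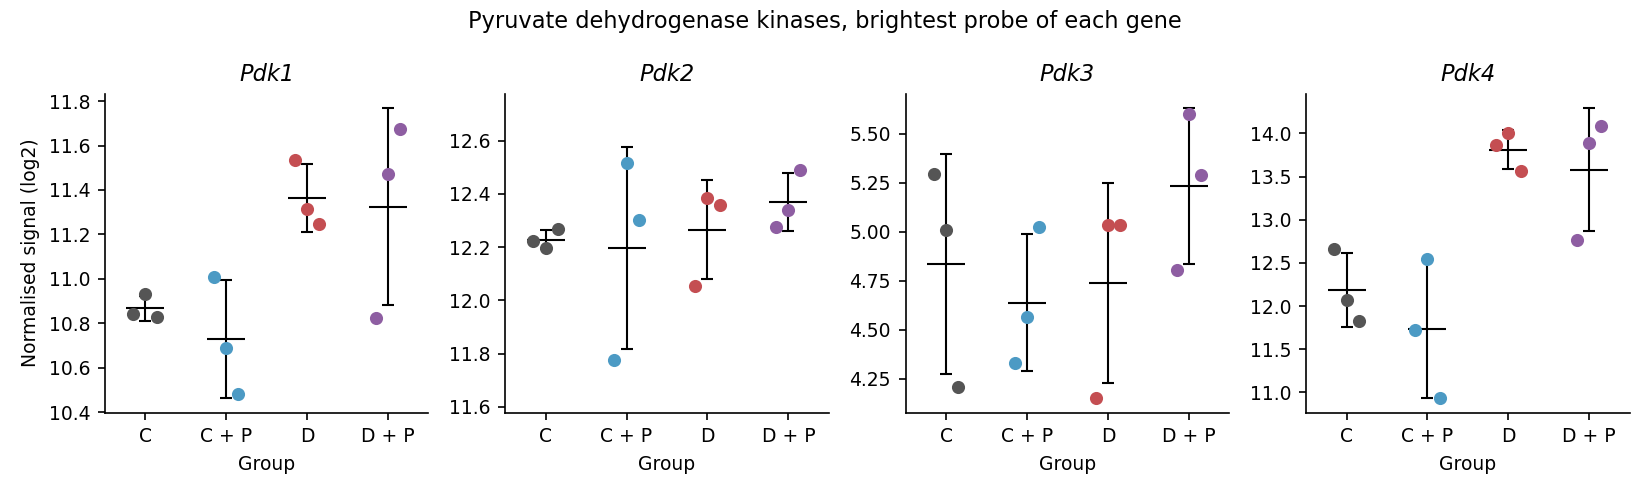
Log2 normalised signal of the brightest probe of each pyruvate dehydrogenase kinase (vertical axes, log2 units, scaled separately for each gene) by group. Points are arrays, 1 per mouse, and lines with bars are means ± SD. For *Pdk4* all D arrays lie above all C arrays and all D + P arrays above all C + P arrays, whereas the groups overlap for *Pdk2* and *Pdk3*.

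The *Pdk4* signal was 3.09-fold higher in D than in C (log2 difference 1.63, SE 0.43, 95% interval 0.67 to 2.59) and under pargyline the diabetic hearts were 3.60-fold above their controls (1.85, SE 0.43, 0.89 to 2.81). Averaged over pargyline, diabetic hearts were 3.33-fold higher (1.74, SE 0.31, 1.06 to 2.41). In limma this average had an unadjusted p of 0.000165 and a Benjamini-Hochberg adjusted p of 0.0766, which did not pass the threshold of 0.05. Adjusted p was 0.306 without pargyline (D against C) and 0.273 with it (D + P against C + P). The average passed without D + P replicate 1 (1.94, adjusted p = 0.0303), with array weights (1.68, adjusted p = 0.039) and among probes well above background (1.74, adjusted p = 0.0456), and over all alternatives its adjusted p ranged from 0.0303 to 0.212. Its log2 difference ranged from 1.54 to 1.94 under the same alternatives.

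Pargyline left the *Pdk4* groups overlapping. The signal in C + P was 0.45 below that in C on the log2 scale (95% interval -1.41 to 0.51, adjusted p = 1; -0.05 without C + P replicate 3 and -0.85 without C + P replicate 2), and in D + P it was 0.23 below that in D (-1.19 to 0.73, adjusted p = 0.837). Averaged over diabetes the difference was -0.34 (SE 0.31, adjusted p = 0.742), and leaving out 1 array moved it between -0.54 and -0.14. The effect of diabetes with pargyline exceeded that without it by 0.22 (SE 0.61, 95% interval -1.14 to 1.58, adjusted p = 0.948), an interval wide enough to hold differences in either direction.

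*Pdk1*, which is pyruvate dehydrogenase kinase 1 and not the phosphoinositide-dependent kinase of the same abbreviation, had the next largest difference. Its brightest probe lies at chr2:71739926-71739985 (mm9, plus strand). Log2 signal was 10.84, 10.93 and 10.83 in C and 11.54, 11.31 and 11.25 in D, so that the groups did not overlap. In C + P it was 11.01, 10.69 and 10.48, and in D + P it was 10.83, 11.47 and 11.68, where D + P replicate 1 lay among the C + P arrays. Diabetic hearts were 0.50 higher without pargyline and 0.60 higher with it, and 0.55 higher on average (SE 0.16, 95% interval 0.20 to 0.90, 1.46-fold, adjusted p = 0.249). As a mean over its 5 probes the differences were 0.08 without pargyline and 0.28 on average. The average of the brightest probe passed under 1 of 22 alternatives, array weights (0.58, adjusted p = 0.0471).

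The other 4 *Pdk1* probes did not run alike. A probe near the brightest, chr2:71739688-71739747, was 0.43 higher in diabetic hearts on average (unadjusted p = 0.0285), and a probe upstream, chr2:71713523-71713582, was 0.26 higher (unadjusted p = 0.0452). A probe that the files place between 71721635 and 71721929 was 0.14 lower, and was well above background on 10 of 12 arrays. The last, for a transcript known by an Ensembl identifier, was well above background on 5 of 12 arrays, 3 of them D + P and 0 of them C + P, so that its level in C + P is only a bound. Under pargyline the mean signal of this probe in D + P was at least 2.1-fold that in C + P (limma, adjusted p = 0.692). This bound was set by the lowest signal well above background on each C + P array or the probe's own where higher. It describes the measured means and is no lower limit for the difference between the groups. The 95% interval of the fold change in limma, 0.885 to 8.48, included no change. Without pargyline the same probe had a difference of -0.88, with 1 of 3 arrays well above background in both C and D. It rested on single arrays, with C at 4.90, 4.76 and 7.29 and D at 5.96, 5.17 and 3.16. The adjusted p of the 5 *Pdk1* probes did not pass in any contrast.

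*Pdk2*, a kinase of many tissues including heart, did not pass the test in any contrast. Its signal was 12.22, 12.20 and 12.27 in C, 11.78, 12.51 and 12.30 in C + P, 12.05, 12.39 and 12.36 in D, and 12.28, 12.34 and 12.49 in D + P. The groups overlapped in both diabetes comparisons, and the average difference was 0.10 (SE 0.14, 95% interval -0.20 to 0.41, adjusted p = 0.802), with a sign that turned under normexp background correction (-0.04). *Pdk3*, a kinase with its highest levels outside the heart, was dim: 3 of 12 arrays had its brightest probe well above background, and 0 of 12 the other. The signal of the brightest ranged from 4.15 to 5.60. It was well above background on 0 of 3 arrays in both C + P and D, where its level is only a bound, so that no difference is given, and its adjusted p did not pass in any contrast.

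The phosphatases overlapped between diabetic and non-diabetic hearts. *Pdp1*, the calcium-sensitive phosphatase, was 9.53, 9.27 and 9.42 in C and 9.24, 9.84 and 9.68 in D, and 9.33, 9.16 and 8.85 in C + P and 9.12, 9.16 and 9.65 in D + P. Its average difference was 0.19 (SE 0.15, 95% interval -0.15 to 0.53, adjusted p = 0.661), and leaving out 1 array moved it between 0.11 and 0.28. *Pdp2*, the insulin-responsive phosphatase, was 12.84, 12.74 and 12.60 in C and 13.81, 12.70 and 12.77 in D, and ran from 12.39 to 12.97 in C + P and from 12.66 to 13.30 in D + P. The *Pdp2* difference of 0.37 in D against C rested on D replicate 1, without which it was 0.01. Its average difference was 0.30 (SE 0.21, 95% interval -0.17 to 0.77, adjusted p = 0.619), and 0.12 without D replicate 1. The other probe of each phosphatase also had a positive average, 0.13 for *Pdp1* and 0.15 for *Pdp2*.

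**Figure D2:**
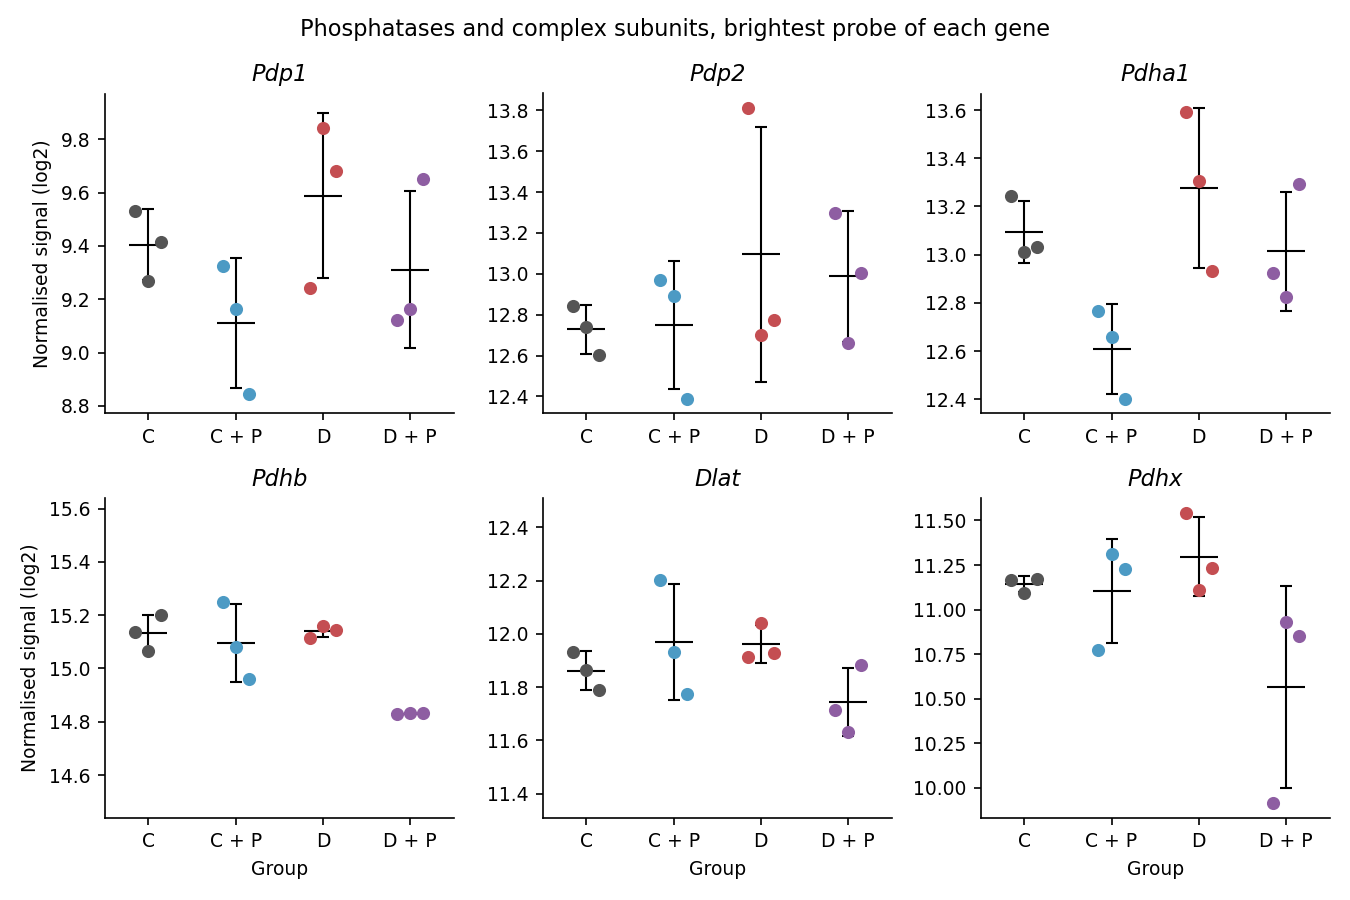
Log2 normalised signal of the brightest probe of the phosphatases *Pdp1* and *Pdp2* and the subunits *Pdha1*, *Pdhb*, *Dlat* and *Pdhx* (vertical axes, log2 units, scaled separately for each gene) in the 4 groups. Points are arrays and lines with bars are means ± SD. The 3 D + P arrays of *Pdhb* lie together at 14.83, below every array of the other groups.

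Subunits of the complex had average differences between -0.19 and 0.29, and none passed the test. *Pdha1*, the catalytic alpha subunit that the kinases phosphorylate, was 13.24, 13.01 and 13.03 in C, 13.59, 13.31 and 12.93 in D, 12.77, 12.66 and 12.40 in C + P and 12.92, 12.83 and 13.29 in D + P. All D + P arrays were above all C + P arrays (difference 0.40, adjusted p = 0.688, and 0.265 to 0.498 when 1 array was left out). D and C overlapped (0.18, adjusted p = 0.753, and 0.02 without D replicate 1). Averaged over pargyline *Pdha1* was 0.29 higher (SE 0.14, 95% interval -0.03 to 0.61, adjusted p = 0.477). Its other probe, well above background on 11 of 12 arrays, had an average difference of 0.03.

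*Pdhb*, the beta subunit of the same enzyme, was 15.14, 15.07 and 15.20 in C and 15.12, 15.16 and 15.14 in D, a difference of 0.01. In C + P it was 15.25, 15.08 and 14.96 and in D + P 14.83, 14.83 and 14.83, so that all D + P arrays were below all C + P arrays (difference -0.27, SE 0.13, adjusted p = 0.683). *Dlat*, the acetyltransferase core, ranged from 11.63 to 12.20 over the 12 arrays, with an average difference of -0.06 (SE 0.11, adjusted p = 0.852). Its other probe had an average of -0.13 (SE 0.22). *Pdhx*, the protein that anchors the dihydrolipoamide dehydrogenase to that core, was 11.17, 11.09 and 11.17 in C, 11.54, 11.11 and 11.23 in D, 10.77, 11.31 and 11.23 in C + P and 9.91, 10.93 and 10.85 in D + P. D + P replicate 1 was far below its own group for *Pdhx*, and the average difference was -0.19 (SE 0.19, adjusted p = 0.728), against 0.03 for its other probe. Leaving out 1 array moved the average of the brightest between -0.28 and -0.03.

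Counted over the 10 genes by their brightest probes, 0 passed at an adjusted p of 0.05 in D against C, where 0.00648% of all tested probes passed. In D + P against C + P, 0 of 10 passed against 0.0454% of all probes, and in diabetes averaged over pargyline 0 of 10 passed against 0.107%. At an unadjusted p under 0.05 in limma there were 1 of 10 without pargyline (10.8% of all probes in D against C), 2 of 10 in D + P against C + P (7.46%) and 2 of 10 in the average (11.4%). The 2 in the average were *Pdk4* and *Pdk1*. The methods' t-test gave 2 of 10 at an unadjusted p under 0.05 in both diabetes comparisons, against 11.4% of all probes without pargyline and 6.55% with it. After Bonferroni or Benjamini-Hochberg correction it gave 0 of 10, against 0% and 0.00324% of all probes.

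Groups did not overlap for 2 of 10 genes in D against C, *Pdk4* and *Pdk1*, where 22.2% of all tested probes did not overlap. In D + P against C + P they did not overlap for 3 of 10, *Pdk4*, *Pdha1* and *Pdhb*, against 13.9% of all probes. Only *Pdk4* of the 10 had both pairs of groups apart in the same direction, against 2.5% of all probes. Beside these shares, counts of 1 to 3 in 10 are no result about the 10 genes. Without *Pdk3*, for which no difference is given, 6 of the other 9 genes were higher and 3 lower in the average, with a median of 0.19, and the median of all tested probes was -0.01.

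**Figure D3:**
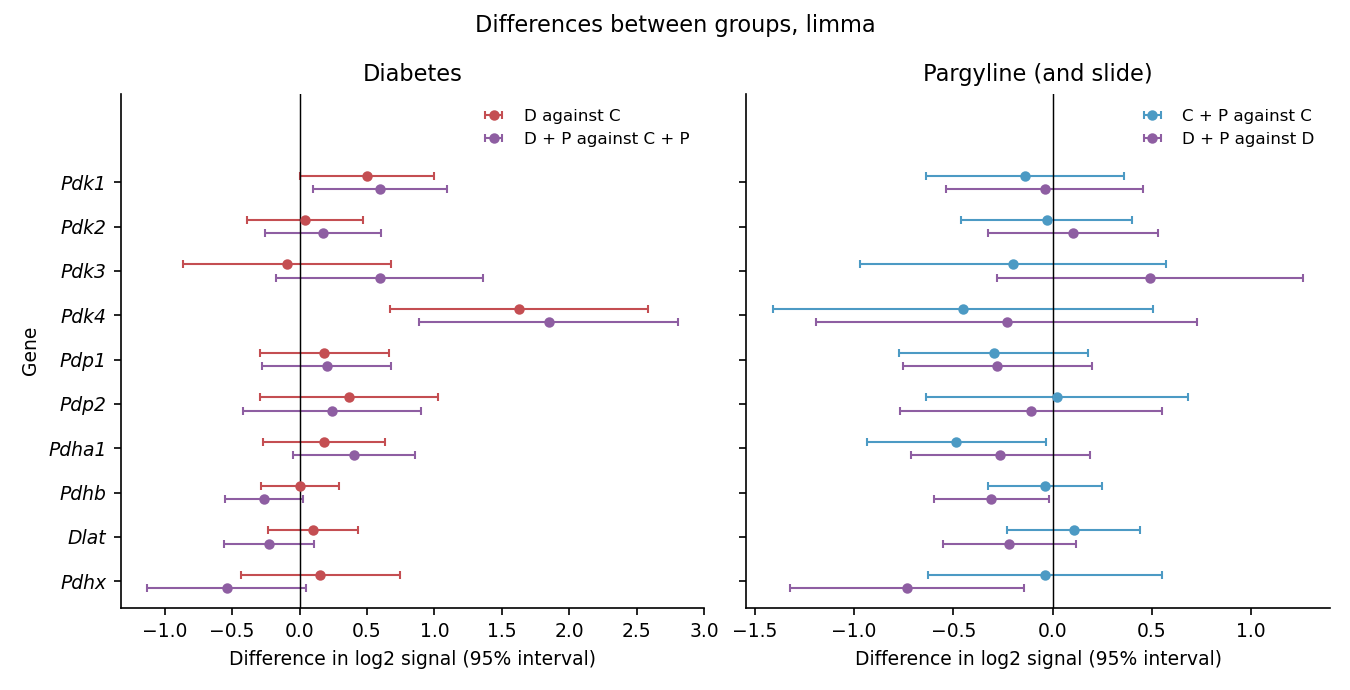
Differences in log2 signal (horizontal axes) for the brightest probe of each of the 10 genes, for diabetes (left, D against C and D + P against C + P) and for pargyline (right, C + P against C and D + P against D). Points are limma estimates and bars are 95% intervals, unadjusted. The *Pdk4* intervals for diabetes start at 0.67 and 0.89, slide cannot be told apart from pargyline on the right, and the level of *Pdk3* is only a bound in C + P and D.

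**Figure D4:**
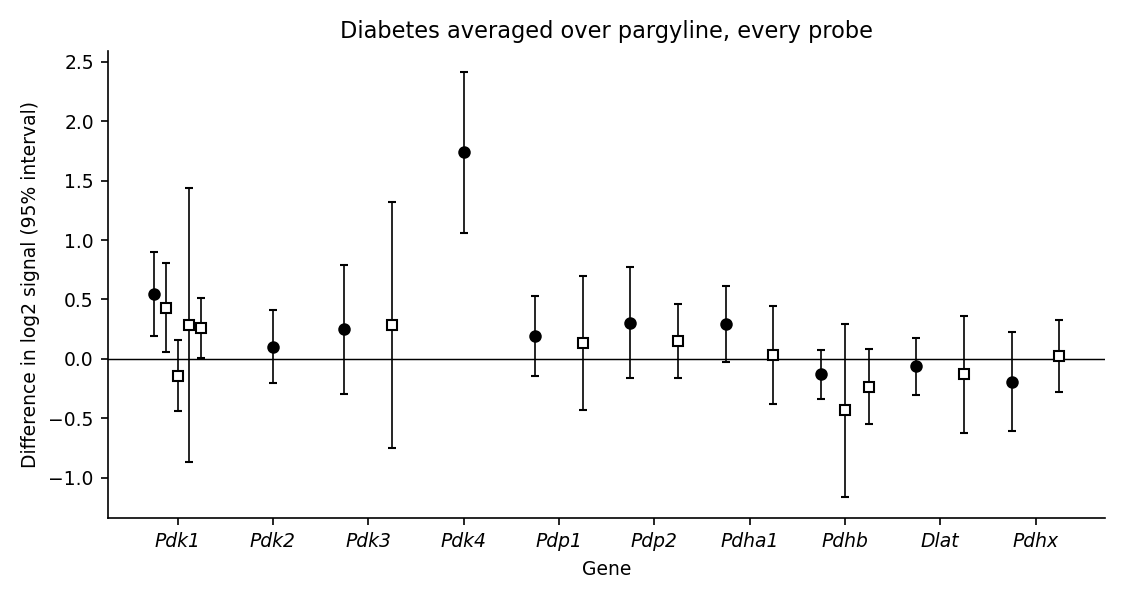
Difference in log2 signal between diabetic and non-diabetic hearts, averaged over pargyline (vertical axis), for each of the 22 probes, grouped by gene. Filled circles are the brightest probe of a gene, open squares its other probes, and bars are 95% intervals from limma, unadjusted. Of the 12 other probes, 10 have the sign of the brightest probe of their gene, the exceptions being 1 probe of *Pdk1* and 1 of *Pdhx*, and *Pdk3* lies near the background.

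In the comparisons of pargyline with no pargyline, the lowest unadjusted p-values among the 10 genes were those of complex subunits, and 0 of 10 genes passed after adjustment. In C + P against C the lowest adjusted p was 1, and 0.0324% of all probes passed. *Pdha1* was lower on all C + P arrays than on all C arrays, by 0.49 (SE 0.20, unadjusted p = 0.0374). Its other probe was 0.07 higher in C + P (SE 0.27), and the mean over both was -0.21. By its brightest probe it was the 1 gene of 10 with an unadjusted p under 0.05, against 4.43% of all probes, and the 1 gene of 10 whose groups did not overlap, against 15.3%. Among cell type markers, groups were apart for 2 of 4 fibroblast and 1 of 4 red cell markers and for none in the other lists. Their part in the *Pdha1* difference was not tested.

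In D + P against D, 0 of 10 genes passed at an adjusted p of 0.05, 0% of all probes did, and the lowest adjusted p of the 10 was 0.288. *Pdhx* was lower in D + P by 0.73 (SE 0.27, unadjusted p = 0.0197), a difference that was 0.41 without D + P replicate 1. *Pdhb* was lower by 0.31 (SE 0.13, unadjusted p = 0.0386), and another of its probes, chr14:8997620-8997679 (mm9), was lower by 0.62 (SE 0.20, unadjusted p = 0.0114). These are the 2 of 10 genes with an unadjusted p under 0.05, against 13.3% of all probes. *Dlat* was lower by 0.22 (SE 0.15, unadjusted p = 0.179). D + P arrays did not overlap D arrays for these 3 of 10 genes, against 17% of all probes.

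Probes of the same subunits did not all agree in D + P against D. The third *Pdhb* probe was 0.53 higher in D + P (SE 0.46), with D replicate 3 at 5.98 against 8.31 and 7.44 on the other D arrays. The other *Dlat* probe was 0.15 higher (SE 0.31), with D replicate 1 at 9.515 against 10.84 and 10.78. Each of these higher values rested on that 1 low D array. The other *Pdhx* probe was 0.14 lower (SE 0.20). Groups were also apart for some cell type markers in this comparison, with 0 past an adjusted p of 0.05, where 17% of all probes were apart. They were apart for 0 of 7 cardiomyocyte, 0 of 4 fibroblast, 0 of 4 red cell and 0 of 2 tested skeletal muscle markers. For 4 endothelial markers the log2 of the summed signal was 12.69 to 13.15 in D and 13.28 to 13.62 in D + P, and 1 of the 4 had groups apart, *Kdr* (0.75). Groups were apart for 1 of 3 smooth muscle markers, *Myh11* (1.59), where the summed signal was 12.88 to 13.35 in D and 12.79 to 13.18 in D + P. They were apart for 1 of 2 tested atrial markers, *Myl7* (-1.18), which was well above background on 1 of 3 arrays in every group (summed signal 8.04 to 8.44 in D and 7.75 to 8.32 in D + P). They were apart for 2 of 4 macrophage markers (11.66 to 12.01 in D and 11.60 to 11.97 in D + P) and for 1 of 2 tested fat cell markers (6.08 to 7.48 in D and 5.39 to 6.36 in D + P). Beside the 17% of all probes, these counts are no result about the cell types. The part of the markers in the differences of the subunits was not tested.

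Averaged over diabetes, 0 of 10 genes passed for pargyline, against 0.0551% of all probes. *Pdha1*, at -0.37 (SE 0.14, adjusted p = 0.429), was the 1 gene with an unadjusted p under 0.05, against 10.2% of all probes, and its other probe was 0.20 higher. The interaction passed for 0 of 10 genes, against 0.00648% of all probes, with a lowest adjusted p of 0.736 for *Pdhx*, at -0.69 (SE 0.38), which was -0.37 without D + P replicate 1.

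Other genes of pyruvate use were read from a list of 21. It holds pyruvate carriers, lactate dehydrogenases, pyruvate kinase, pyruvate carboxylase, the enzymes that make or attach lipoate, and the regulatory subunit of the pyruvate dehydrogenase phosphatase. The related keto acid dehydrogenases are also in it, with the kinase and phosphatase of the branched-chain dehydrogenase. In diabetes averaged over pargyline 0 of 21 passed at an adjusted p of 0.05, where 0.107% of all probes passed. Of the list 8 were higher and 13 lower with a median of -0.10, and of all 30859 tested probes 14952 were higher and 15907 lower. Without pargyline 10 of the list were higher and 11 lower (median -0.01), and with pargyline 2 were higher and 19 lower (median -0.15), where 15738 of all probes were higher and 15121 lower. The difference between the pairs was not tested for the list. *Dld*, the dihydrolipoamide dehydrogenase that the complex shares with the related dehydrogenases, had differences of opposite sign, 0.40 in D over C (SE 0.24, adjusted p = 0.545) and -0.36 under pargyline (SE 0.24, adjusted p = 0.775, and -0.61 to -0.14 when 1 array was left out), with an average of 0.02. Its D arrays, 11.70 to 12.03, lay above all C arrays, 11.41 to 11.51, and above all D + P arrays, 10.88 to 11.47. The interaction was -0.77 (SE 0.34, adjusted p = 0.709). *Pcx*, pyruvate carboxylase, was -0.38 (SE 0.12, adjusted p = 0.265, and -0.15 under normexp), and its D arrays lay below all C arrays and its D + P arrays below all C + P arrays. *Dbt*, the core of the branched-chain dehydrogenase, was -0.56 (SE 0.32, adjusted p = 0.536), with D replicate 1 and D + P replicate 1 far below the rest at 7.62 and 7.70, without which it was -0.30 and -0.36 in turn. *Lipt1*, which transfers lipoate, was -0.36 (SE 0.43, adjusted p = 0.777), a value set by D + P replicate 3 at 3.48, without which it was 0.11.

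Transcription factors and cofactors known to act on *Pdk* genes, a list of 13, had 0 past the threshold in any contrast. In the average, where 0.107% of all probes passed, 10 of the 12 without *Myc* were higher and 2 lower, with a median of 0.11. *Hif1a*, a hypoxia factor known to induce *Pdk1*, was 0.68 higher (SE 0.17, adjusted p = 0.203), and passed with array weights (0.76, adjusted p = 0.0254). In D against C it passed under 1 of 23 alternatives (adjusted p = 0.0323). Its signal was 9.79, 9.90 and 9.89 in C and 11.33, 11.04 and 10.60 in D, without overlap. In C + P it was 10.51, 9.95 and 9.81, and in D + P 10.27, 10.64 and 10.04, which overlap. Its interaction was -0.91 (SE 0.35, adjusted p = 0.688), and 0.06 as a mean over its probes. *Myc* was well above background on 3 of 12 arrays, 0 of them C + P, where its level is only a bound, and no difference is given. *Esrra*, an estrogen-related receptor, was -0.37 (SE 0.15, adjusted p = 0.404).

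Known target genes of PPARs, a list of 21 without *Pdk4*, had 21 of 21 higher in diabetic hearts on average, with a median of 0.47, against 14952 of all 30859 probes with a median of -0.01. Of the list 2 of 21 passed in this average, against 0.107% of all probes. By pair, 20 of 21 were higher in D against C (15087 of all probes) and 18 of 21 in D + P against C + P (15738 of all probes). For some of the list the sign of the average turned under an alternative. In diabetes averaged over pargyline 4 of 4 macrophage markers were lower, with a median of -0.39 and 0 past an adjusted p of 0.05. Their groups were apart for 3 of 4 in D + P against C + P (13.9% of all probes) and for 1 of 4 in D against C (22.2%). The log2 of their summed signal was 11.90 to 12.34 in C and 11.66 to 12.01 in D, and 11.93 to 12.41 in C + P and 11.60 to 11.97 in D + P. Of 4 red cell markers 2 were higher and 2 lower, *Slc4a1* lowest at -1.05 (adjusted p = 0.124), and the log2 of their summed signal ran from 16.79 to 17.32 over the groups. Of 7 cardiomyocyte markers 4 were higher and 3 lower, with *Ryr2* lowest at -0.99 (adjusted p = 0.141) and apart in both pairs of groups by its brightest probe, and at -0.23 and 0.16 by its other probes. The part of these markers in the differences of the PPAR targets and of *Pdk4* was not tested. *Angptl4*, an inhibitor of lipoprotein lipase, rose by 2.82 on the log2 scale (SE 0.31, adjusted p = 0.0126). *Acot1*, which splits fatty acyl-CoA, rose by 1.75 (SE 0.25, adjusted p = 0.0423). The *Acot1* call held under 9 of 22 alternatives and was lost with no filter on dim probes (0.0582), with the replicate block (0.116) and without any 1 array other than D + P replicate 1. *Ucp3*, a mitochondrial uncoupling protein, was 0.69 higher (SE 0.27, adjusted p = 0.388). *Angptl4* also passed in D + P against C + P, where it rose by 3.47 (SE 0.43, adjusted p = 0.0254), and in D against C it was 2.18 higher (adjusted p = 0.216). The call in D + P against C + P held under 12 of 23 alternatives, with an adjusted p from 0.00438 to 0.664. It was lost with array weights (0.0669), within the slide of the pargyline groups (0.484), by the methods' t-test (0.664) and without any 1 of C replicates 1 and 3, C + P replicates 1 and 3, D replicates 1 and 2 and D + P replicates 2 and 3. Without C replicate 1, C replicate 3, D + P replicate 2 or D + P replicate 3, the number passing in the average fell from 2 to 0, and over all alternatives the adjusted p ranged from 0.00243 to 0.0695 for *Angptl4* and 0.00112 to 0.141 for *Acot1*. Without D + P replicate 1 the number was 2, and without any other array it was 1. The *Pdk4* difference of 1.74 lay beside that of *Acot1*, with a larger SE of 0.31.

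**Figure D5:**
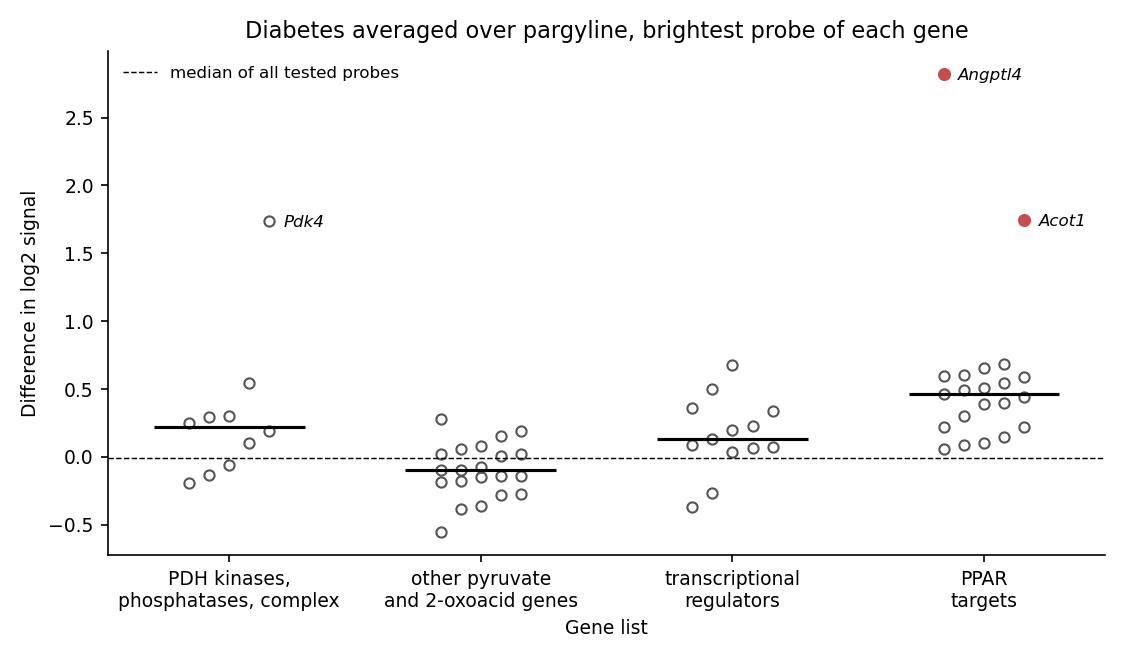
Difference in log2 signal between diabetic and non-diabetic hearts, averaged over pargyline (vertical axis), for the brightest probe of each gene in 4 lists (horizontal axis). Each point is a gene, red where the adjusted p in limma was under 0.05, black lines are medians of the lists (with *Pdk3* and *Myc*, which lie near the background) and the dashed line is the median of all tested probes, -0.01. *Angptl4* and *Acot1* passed, and *Pdk4* is the open point at 1.74.

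Over the 12 arrays the *Pdk4* signal ran most closely with *P3h4* (Pearson r 0.979), *H1f2* (0.961), *Nudt16* (0.955), *H19* (0.95) and *Bhlhb9* (0.95), among 30858 other tested probes. These values describe arrays that share the difference between diabetic and non-diabetic hearts, and carry no test. *H1f2*, a linker histone, was 1.15 higher in diabetic hearts on average (adjusted p = 0.141). *H19*, a long non-coding RNA, was well above background on 1 C array, 0 C + P arrays, 2 D arrays and 2 D + P arrays, so that its level in C + P is only a bound. Within the 10 genes, r with *Pdk4* was 0.877 for *Pdk1*, 0.67 for *Pdha1* and 0.583 for *Pdp1*, lay between 0.03 and 0.42 for *Pdp2*, *Pdk2*, *Pdk3* and *Pdhx*, and was -0.04 for *Dlat* and -0.27 for *Pdhb*.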

How the data were processed

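Total RNA, 200 ng per heart, was labelled with Cy3 and hybridised to Agilent mouse arrays. The authors deposited spot intensity from Feature Extraction (version 12.0.0.7 per the file headers), background-subtracted and on a linear scale, with flags for detection. They also deposited a table of intensity, quantile normalised by the authors, used as an alternative. Here intensity was log2 transformed and quantile normalised, control spots were left out and repeated spots were averaged. Testing was limited to the 30859 of 56605 probes that the software flagged positive and significant in 50% or more of each group's arrays. The probe with the highest mean signal stood for a gene, and other probes are given beside it. Coordinates are mm9, as in the files, and sequence came from RefSeq on GRCm38.p6. Probe names were matched to RefSeq symbols.

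The model was fitted to all 12 arrays with limma (3.58.1, R 4.3.3), with 1 mean per group and 8 residual and 2.62 prior degrees of freedom. Tests were two-sided, p-values were adjusted by Benjamini-Hochberg across the tested probes, and the threshold was 0.05. The number of arrays limits the precision: 3 arrays against 3 in an exact permutation test cannot give a two-sided p below 0.1. The same fit was tested on simulated data. The genes described and all lists were chosen with earlier results of these data known. From each list the genes past the threshold and the 3 with the largest average difference are named, and the 5 genes most like *Pdk4*; *Dld* is named besides, chosen after its values were seen. In the list of PPAR targets 1 gene is not reported here. Alternatives were 75th percentile scaling, normexp, other filters on dim probes, missing values, the deposited table, blocks, array weights, the methods' t-test, means over probes and leaving out each array. Figures were drawn with Python 3.11.15, numpy 2.4.6, pandas 2.3.3 and matplotlib 3.10.9.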

Additional observations from a re-analysis of the deposited data

How the results depend on the processing

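Outside diabetes averaged over pargyline, the 10 genes held 0 calls in the other 6 contrasts under every alternative run for them. In diabetes averaged over pargyline the count was 0 as reported, 1 among probes well above background on all arrays of a group (*Pdk4*), 2 with array weights (*Pdk4* and *Pdk1*), and 0 to 1 when each array was left out. Over all tested probes the calls in that average were 33, and ran from 3 to 348 under the alternatives. Array weights were lowest for D replicate 1 (0.242) and C + P replicate 1 (0.336).

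Directions turned for these values. *Pdk2* was -0.20 in D against C and -0.044 on average under normexp, and -0.047 in D + P against C + P with array weights. In D against C the mean over probes was -0.14 for *Pdhb* and -0.069 for *Dlat*, and under normexp their averages were 0.038 and 0.044. The *Pdk4* interaction was -0.21 with array weights, the *Hif1a* interaction was 0.056 as a mean over probes against -0.91 as reported, the *Dld* average was -0.013 under normexp, and the *Lipt1* average was 0.11 with missing values. Leaving out each array gave -0.023 to 0.14 in D against C, -0.039 to 0.33 in D + P against C + P and -0.001 to 0.18 on average for *Pdk2*, -0.029 to 0.038 for *Pdhb* in D against C, -0.49 to 0.18 for *Pdk4* in D + P against D, -0.18 to 0.63 for its interaction, -0.103 to 0.133 for the *Dld* average and -0.62 to 0.11 for *Lipt1*. The cause was not tested.

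Between same-numbered arrays of different groups, the correlation of their deviations ran from -0.204 to 0.2 (18 pairs, 4 over 0.1). Pairs with different numbers were not set beside them, so these values cannot decide whether the numbers pair the mice. With the replicate block the 10 genes held 0 calls and the average of *Pdk4* stayed at 1.74 (adjusted p = 0.159). The calls over all probes in that average went from 33 to 4, and those among PPAR targets from 2 to 1. PPAR target calls were also 1 with no filter on dim probes and 6 with array weights. Slide as a block gave *Pdk4* an adjusted p of 0.0625, and within slides it was 0.329 on slide 1 and 0.628 on slide 2. Signal over background limits *Pdk3*, the *Pdk1* probe of the Ensembl transcript, *Myc* and *H19*.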
